A study of Homo sapiens with 18 samples.

Results

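The transcripts described here encode 9 repressors of transcription that act through DNA methylation or through the Polycomb mark on histone H3, picked by name from a table of 60656 genes: DNMT1, UHRF1, HELLS, DNMT3A and DNMT3B for DNA methylation, and EZH2, EZH1, SUZ12 and EED for Polycomb repressive complex 2 (PRC2). Messenger RNA was read from its 3′ end in 18 libraries, 9 from CAMA-1 and 9 from ZR-75-1, established human breast cancer cell lines that express the oestrogen receptor, both labelled wild-type and parental, and therefore each a single line as a model. Cells of either line received abemaciclib at 500 nM, palbociclib at 500 nM or an equal volume of DMSO for 5 days, with 3 libraries in each of the 6 groups. Both drugs inhibit CDK4 and CDK6, the kinases that inactivate the retinoblastoma protein at the start of the cell cycle, and the series asks how transcription changes under them.

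DNA methylation is copied onto new DNA at each replication. UHRF1 recognises DNA methylated on one strand and brings the methyltransferase DNMT1 to it, HELLS is a nucleosome remodeller that opens packed chromatin to this machinery, and DNMT3A and DNMT3B methylate DNA that carried no mark before. PRC2 writes the repressive methylation of lysine 27 on histone H3: EZH2 or its relative EZH1 is the catalytic subunit, SUZ12 holds the complex together and EED binds the finished mark. EZH2, UHRF1 and DNMT1 are commonly abundant in dividing cells, whereas EZH1 is the form known for resting cells.

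Library totals ran from 2308442 to 4146549 counts. Levels are given as CPM (counts scaled to a common library total) on a scale common to all 18 libraries, and since the kit reads 1 end of each transcript, gene length has little bearing on them. Reads of mitochondrial genes made up 14.8 to 16.6% of the counts in CAMA-1 DMSO libraries, 23.4 to 26.1% under abemaciclib and 22.9 to 24.9% under palbociclib, against 17.3 to 22.6% over all ZR-75-1 libraries. Leaving these genes out before scaling ended no call of the 9 genes. All 9 luminal markers had a mean of at least 10 counts in either line, and none of the 4 leukocyte markers did. Replicates are described by the study as independent, but the labels name no cultures.

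As these genes are known in cell cycle studies, their promoters are shown first. RefSeq (GRCh38.p14) lists 17 start sites for the 9 genes, and windows of 300 bases (250 before the start and 50 after) were searched on either strand for the E2F-like octamers TTTCCCGC, TTTCGCGC, TTTGCCGC and TTTGGCGC. Of the 9 genes, 6 held at least 1 match (DNMT1, UHRF1, HELLS, EZH1, EZH2 and SUZ12), whereas 3.99% of all 27305 genes with a listed promoter did, or 3.31% of 35116 promoters. DNMT3A, with 6 starts, DNMT3B and EED held none. For DNMT3B and EED the only window searched lay inside the gene, and the annotated 5′ end was not searched. The DNMT3B window was chr20:32779602-32779901 in a gene that begins at 32762385. The EED window was chr11:86244503-86244802 in a gene that begins at 86201212. The shares over all genes were not matched for base composition or for the number of starts of a gene. The stretches from 120 bases before the start to 30 bases after it are printed for 4 genes whose transcripts fell with a CDK4/6 inhibitor, and for EZH1, which held a match although its transcript did not pass the test in any comparison. Each reads 5′ to 3′ on the strand of the gene, and capitals mark E2F-like matches on either strand, including the shorter form without the first T.
DNMT1, chr19:10194924-10195073, minus strand: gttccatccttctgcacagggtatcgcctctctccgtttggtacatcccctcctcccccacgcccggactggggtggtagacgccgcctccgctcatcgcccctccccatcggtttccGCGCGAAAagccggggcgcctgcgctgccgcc
UHRF1 (first start), chr19:4909381-4909530, plus strand: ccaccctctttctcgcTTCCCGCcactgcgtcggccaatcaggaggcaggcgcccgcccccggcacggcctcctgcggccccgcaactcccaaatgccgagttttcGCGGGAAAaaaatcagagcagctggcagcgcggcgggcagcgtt
HELLS, chr10:94545668-94545817, plus strand: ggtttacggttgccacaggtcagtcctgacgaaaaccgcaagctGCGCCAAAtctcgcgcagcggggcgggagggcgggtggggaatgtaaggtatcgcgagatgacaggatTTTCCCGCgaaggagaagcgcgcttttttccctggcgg
EZH2 (first start), chr7:148884262-148884411, minus strand: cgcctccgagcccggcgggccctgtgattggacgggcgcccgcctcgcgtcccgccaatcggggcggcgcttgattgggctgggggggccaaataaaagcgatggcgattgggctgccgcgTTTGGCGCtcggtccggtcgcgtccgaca
EZH1, chr17:42745011-42745160, minus strand: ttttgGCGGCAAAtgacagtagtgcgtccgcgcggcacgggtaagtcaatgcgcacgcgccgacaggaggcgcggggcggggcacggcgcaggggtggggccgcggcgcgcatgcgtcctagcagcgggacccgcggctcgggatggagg

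HELLS was the only one of the 5 with 2 octamers in its window, beginning 76 and 8 bases before the start. The UHRF1 match began 14 bases before its first start, and the DNMT1 match 2 bases before its start. In EZH2 the octamer lay 1 base past the start, behind 4 CCAAT boxes that began 94, 66, 47 and 13 bases before it. CCAAT was found in 6 of the 9 genes, against 39.7% of all genes, and the cell cycle homology region (TTTGAA or TTCGAA) in 2 of 9, against 19.5%. A match is a run of letters and not evidence of binding, and which start the cells used was not measured.

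**Figure D1:**
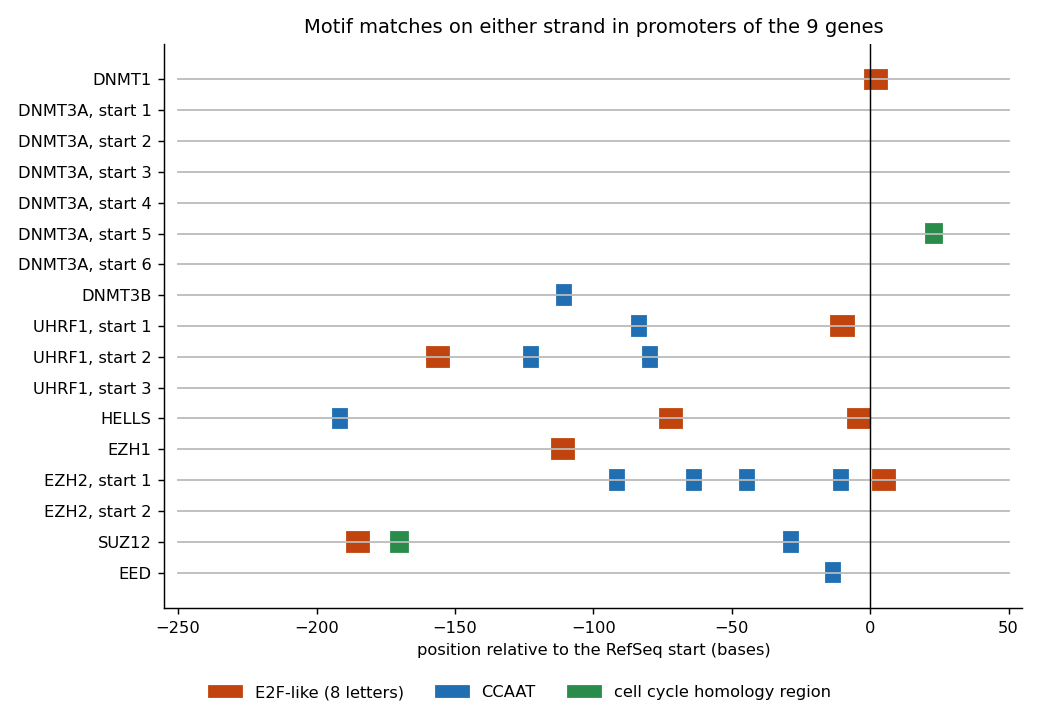
Each line is 1 RefSeq promoter of the 9 genes, from 250 bases before to 50 bases after the start, with coloured boxes for motif matches on either strand; the horizontal axis is the position relative to the start in bases. E2F-like octamers lie within 76 bases of the start in DNMT1, HELLS, the first start of UHRF1 and the first start of EZH2, and further upstream in EZH1 and SUZ12.

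All 9 genes passed the filter on low counts in both lines, so none was left out. Against DMSO, DNMT1, HELLS and EZH2 fell with either inhibitor in either line, DNMT3A rose in the same 4 comparisons, and EZH1 passed the test in none, though by a narrow margin in 1. In CAMA-1, 7 of the 9 transcripts were lower and 1 was higher under abemaciclib, where 20.1% of 11053 tested genes were called lower and 20.3% higher (edgeR quasi-likelihood test, Benjamini-Hochberg adjusted over all genes tested, called under 0.05). With palbociclib the count in CAMA-1 was also 7 lower and 1 higher, against 18.7% and 18.4% of all genes. In ZR-75-1, 5 were lower and 1 was higher under abemaciclib, against 18.3% and 17.9% of 11017 genes, but 3 were lower without DMSO replicate 1. Palbociclib in ZR-75-1 gave 4 lower and 1 higher, against 13.4% and 14.5%, and these were the fewest calls of the 4. Within a line, both inhibitors were compared with the same DMSO libraries. In bulk RNA, fewer cells of a kind and less RNA per cell cannot be told apart.

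**Figure D2:**
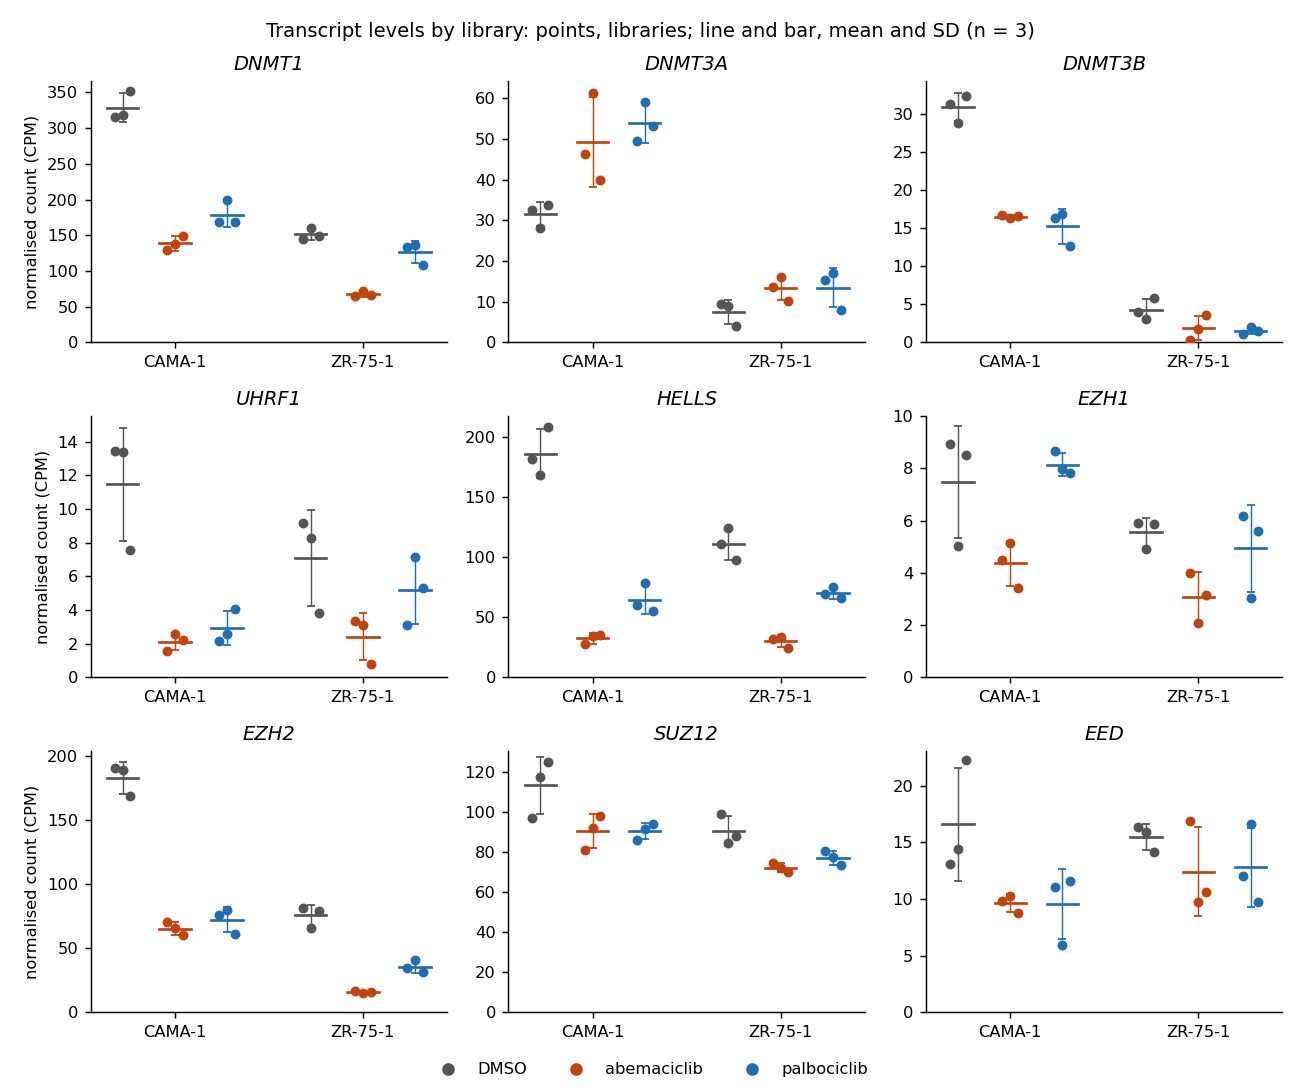
Normalised counts (CPM, linear axes from 0) of the 9 transcripts; each point is a library, and the line and bar are the mean and SD of 3 libraries of DMSO (grey), abemaciclib (red) or palbociclib (blue). DNMT1, HELLS and EZH2 lie below their DMSO libraries in every drug group, and DNMT3A rises instead.

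Of the genes that maintain DNA methylation, DNMT1 and HELLS were lower in all 4 comparisons and UHRF1 in 3. DNMT1 in CAMA-1 measured 316, 318 and 352 CPM in the DMSO libraries, 129, 138 and 149 under abemaciclib and 169, 199 and 168 under palbociclib. In ZR-75-1, DNMT1 measured 144, 161 and 149 CPM under DMSO, 65.4, 71.9 and 65.9 under abemaciclib and 134, 136 and 108 under palbociclib. No drug library reached the lowest DMSO library of its line, although the gap was narrow for palbociclib in ZR-75-1. Abemaciclib changed DNMT1 by -1.28 on the log2 scale (standard error, s.e., 0.08, adjusted p = 9.16e-17) in CAMA-1 and by -1.17 (s.e. 0.10, adjusted p = 2.00e-14) in ZR-75-1, that is, to 41.2% and 44.5% of the DMSO level. Palbociclib changed it by -0.91 (s.e. 0.08, adjusted p = 1.22e-12) in CAMA-1 and by -0.27 (s.e. 0.09, adjusted p = 0.0232) in ZR-75-1. The last of these was not called by DESeq2 (adjusted p = 0.0516), nor without ZR-75-1 DMSO replicate 2 (-0.22, adjusted p = 0.115) or palbociclib replicate 3 (-0.17, adjusted p = 0.212). Exons of DNMT1 share 83 bases with those of S1PR2 on the same strand, and S1PR2 had 627 counts over all libraries.

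HELLS, the remodeller with 2 octamers in the sequence above, measured 182, 169 and 209 CPM under DMSO in CAMA-1, 27.5, 34.3 and 35.6 under abemaciclib and 59.9, 78.2 and 55.4 under palbociclib. The corresponding values in ZR-75-1 were 111, 124 and 97.4 CPM under DMSO, 32.2, 33.7 and 24.5 under abemaciclib and 69.0, 74.9 and 66.0 under palbociclib. In either line the 3 groups formed 3 separate steps, under DMSO highest and abemaciclib lowest. HELLS had the largest estimated fall of the 9 in CAMA-1 under abemaciclib, -2.57 (s.e. 0.12, adjusted p = 3.85e-21), which left 16.9% of the DMSO level. UHRF1 fell nearly as far there with a wider error, and their order was not tested. HELLS changed by -1.56 (s.e. 0.11, adjusted p = 1.07e-15) under palbociclib in CAMA-1, by -1.88 (s.e. 0.13, adjusted p = 1.44e-18) under abemaciclib in ZR-75-1 and by -0.67 (s.e. 0.11, adjusted p = 2.68e-06) under palbociclib in ZR-75-1.

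UHRF1 was a low-count transcript, with 2 to 42 reads in a library. It measured 13.4, 13.4 and 7.58 CPM under DMSO in CAMA-1, 1.59, 2.57 and 2.19 under abemaciclib and 2.17, 2.56 and 4.08 under palbociclib. In ZR-75-1, UHRF1 stood at 9.17, 8.28 and 3.80 CPM under DMSO, 3.32, 3.13 and 0.789 under abemaciclib and 3.09, 7.12 and 5.30 under palbociclib. All drug libraries of CAMA-1 lay below DMSO, whereas in ZR-75-1 those under palbociclib overlapped it. UHRF1 fell by 2.47 (s.e. 0.41, adjusted p = 3.65e-06) and 2.00 (s.e. 0.38, adjusted p = 3.36e-05) on the log2 scale under abemaciclib and palbociclib in CAMA-1. With abemaciclib in ZR-75-1 the change was -1.52 (s.e. 0.48, adjusted p = 0.00855), and it was not called without DMSO replicate 1 (adjusted p = 0.0678) or abemaciclib replicate 3 (adjusted p = 0.0731). Palbociclib in ZR-75-1 gave -0.48 with a 95% interval from -1.32 to 0.35 (adjusted p = 0.422).

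**Figure D3:**
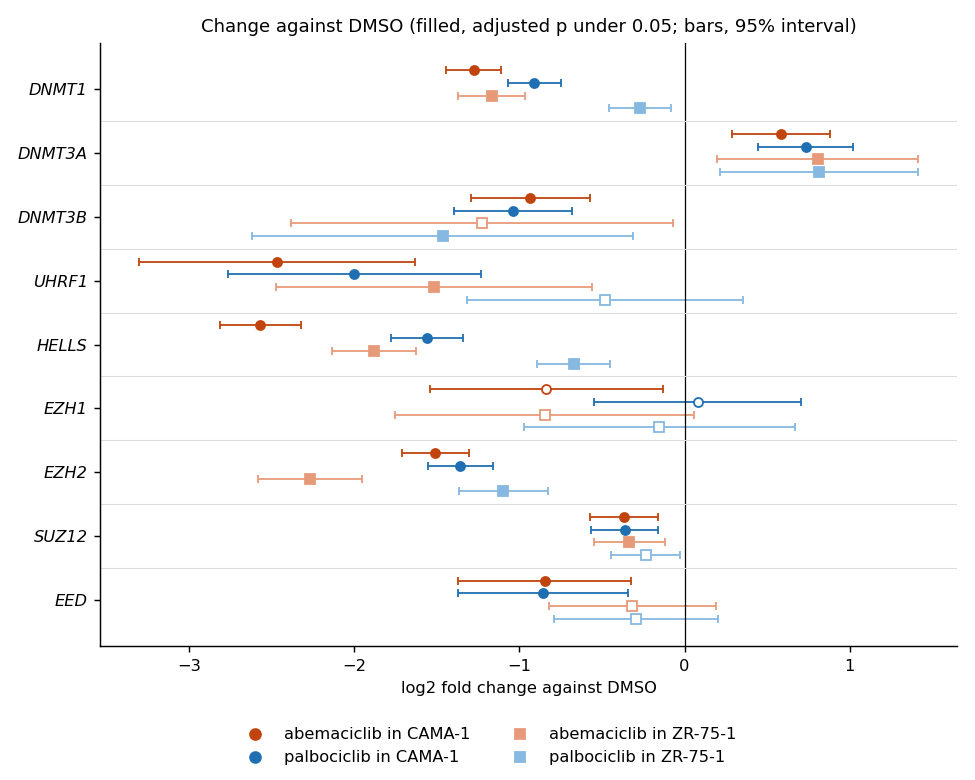
Log2 fold change against DMSO (horizontal axis) of the 9 transcripts for either inhibitor in CAMA-1 (circles) and ZR-75-1 (squares), with 95% intervals; filled symbols passed the test. Only DNMT3A lies to the right of 0 in all 4 comparisons, and the widest intervals belong to UHRF1, EZH1 and, in ZR-75-1, DNMT3B.

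The methyltransferases of unmarked DNA moved in opposite directions. DNMT3A measured 32.6, 28.1 and 33.8 CPM under DMSO in CAMA-1, 46.3, 61.4 and 40.0 under abemaciclib and 49.6, 59.2 and 53.1 under palbociclib, with every drug library above every DMSO library. In ZR-75-1, DNMT3A measured 9.50, 8.90 and 4.15 CPM under DMSO, 13.6, 16.0 and 10.3 under abemaciclib and 15.4, 17.0 and 7.95 under palbociclib, where the third palbociclib library fell within the DMSO range. DNMT3A was 0.58 (s.e. 0.15, adjusted p = 0.00121) and 0.74 (s.e. 0.14, adjusted p = 5.07e-05) higher on the log2 scale under abemaciclib and palbociclib in CAMA-1. The rises in ZR-75-1 were 0.81 under abemaciclib (s.e. 0.30, adjusted p = 0.0307) and 0.81 under palbociclib (s.e. 0.30, adjusted p = 0.0331). Neither of the calls in ZR-75-1 was made by DESeq2 (adjusted p = 0.0635 and 0.0751). Each was also lost without 3 of the 6 libraries in turn, DMSO replicate 3 among them, without which the changes were 0.53 and 0.53. The other libraries on which they turned were abemaciclib replicates 1 (0.79) and 2 (0.66), and palbociclib replicates 1 (0.69) and 2 (0.62).

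DNMT3B measured 31.3, 28.8 and 32.4 CPM under DMSO in CAMA-1, 16.7, 16.3 and 16.6 under abemaciclib and 16.4, 16.8 and 12.6 under palbociclib. The DMSO libraries stood clear of the others, and the drug groups overlapped. DNMT3B fell there by 0.93 (s.e. 0.18, adjusted p = 4.02e-05) under abemaciclib and by 1.04 (s.e. 0.18, adjusted p = 6.82e-06) under palbociclib on the log2 scale. In ZR-75-1, DNMT3B had only 1 to 17 reads in a library, with 3.93, 3.07 and 5.87 CPM under DMSO, 0.332, 1.74 and 3.55 under abemaciclib and 1.12, 2.03 and 1.47 under palbociclib. The change under abemaciclib was -1.23 (s.e. 0.58, adjusted p = 0.0858), which was called without abemaciclib replicate 3 (-2.02, adjusted p = 0.0281) and in a fit of all 18 libraries together (-1.23, adjusted p = 0.0301). With palbociclib it was -1.47 (s.e. 0.57, adjusted p = 0.0450), a call lost without each of 5 of the 6 libraries in turn (all but DMSO replicate 2, -1.70 to -1.19), by DESeq2 (adjusted p = 0.0951) and without a filter on low counts (adjusted p = 0.0871).

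Of the 4 PRC2 members, the catalytic subunit EZH2 was lower in all 4 comparisons, SUZ12 in 3 and EED in both of CAMA-1. EZH2 measured 190.0, 189 and 168 CPM under DMSO in CAMA-1, 69.9, 65.7 and 60.0 under abemaciclib and 75.6, 80.0 and 60.9 under palbociclib. ZR-75-1 gave 81.5, 66.0 and 78.8 CPM of EZH2 under DMSO, 16.6, 14.6 and 15.8 under abemaciclib and 34.5, 40.4 and 31.2 under palbociclib. The inhibitors overlapped in CAMA-1, whereas in ZR-75-1 they formed separate steps below DMSO. EZH2 had the largest fall of the 9 under abemaciclib in ZR-75-1, -2.27 (s.e. 0.16, adjusted p = 2.86e-18), which left 20.7% of the DMSO level. The other changes were -1.51 (s.e. 0.10, adjusted p = 2.53e-16) under abemaciclib and -1.36 (s.e. 0.10, adjusted p = 3.47e-15) under palbociclib in CAMA-1, and -1.10 (s.e. 0.13, adjusted p = 2.35e-09) under palbociclib in ZR-75-1.

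EZH1, the alternative catalytic subunit, had 6 to 37 reads in a library. It measured 8.94, 5.02 and 8.50 CPM under DMSO in CAMA-1, 4.50, 5.15 and 3.44 under abemaciclib and 8.66, 7.97 and 7.82 under palbociclib. In ZR-75-1 the EZH1 values were 5.89, 4.91 and 5.87 CPM under DMSO, 3.98, 2.08 and 3.16 under abemaciclib and 6.17, 3.05 and 5.60 under palbociclib. With abemaciclib EZH1 lay below DMSO in ZR-75-1 and overlapped it by 1 library in CAMA-1, but the changes of -0.84 (s.e. 0.35, adjusted p = 0.0502) in CAMA-1 and -0.85 (s.e. 0.45, adjusted p = 0.140) in ZR-75-1 did not pass the test. The former was on the threshold, and it was called without DMSO replicate 2 (-1.04, adjusted p = 0.0224) and, narrowly, under RLE (adjusted p = 0.04975) and upper-quartile scaling (adjusted p = 0.04997). Palbociclib gave 0.08 (95% interval -0.55 to 0.71) in CAMA-1 and -0.15 (-0.97 to 0.67) in ZR-75-1. As a description, the median ratio of EZH2 to EZH1 reads within a library went from 21.2 under DMSO to 15.5 under abemaciclib and 8.72 under palbociclib in CAMA-1, and from 13.4 to 5.00 and 5.59 in ZR-75-1, where 1 palbociclib library kept a ratio of 13.2.

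SUZ12 and EED, the other core subunits, had smaller changes than EZH2 in every comparison with DMSO. SUZ12 measured 97.1, 118 and 125 CPM under DMSO in CAMA-1, 81.0, 91.8 and 98.1 under abemaciclib and 85.9, 91.3 and 93.9 under palbociclib. In ZR-75-1 SUZ12 had 98.9, 84.4 and 88.1 CPM under DMSO, 74.3, 71.9 and 69.9 under abemaciclib and 80.2, 77.3 and 73.3 under palbociclib. The groups overlapped for abemaciclib in CAMA-1, and elsewhere the drug libraries lay just under the lowest DMSO library. SUZ12 changed by -0.37 (s.e. 0.10, adjusted p = 0.00333) and -0.36 (s.e. 0.10, adjusted p = 0.00343) in CAMA-1 under abemaciclib and palbociclib, and by -0.33 (s.e. 0.11, adjusted p = 0.0105) under abemaciclib in ZR-75-1. The change of -0.24 (s.e. 0.10, adjusted p = 0.0844) under palbociclib in ZR-75-1 was not called. Without CAMA-1 abemaciclib replicate 1 the first of these was -0.28 (adjusted p = 0.0512), and without ZR-75-1 DMSO replicate 1 the third was -0.26 (adjusted p = 0.0949). SUZ12P1, a partial copy whose reads could be exchanged with those of SUZ12, had 2.38 to 12.4 CPM in the same libraries.

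EED measured 13.1, 14.4 and 22.3 CPM under DMSO in CAMA-1, 9.79, 10.3 and 8.75 under abemaciclib and 11.1, 5.98 and 11.6 under palbociclib. The third DMSO library stood well above the other two. EED changed by -0.85 (s.e. 0.26, adjusted p = 0.00779) under abemaciclib and by -0.86 (s.e. 0.26, adjusted p = 0.00664) under palbociclib. Without that DMSO library neither was called (-0.56, adjusted p = 0.137, and -0.57, adjusted p = 0.129), and the palbociclib call was also lost without palbociclib replicate 2 (-0.61, adjusted p = 0.0734). In ZR-75-1 EED had 16.4, 16.0 and 14.2 CPM under DMSO, 16.9, 9.73 and 10.7 under abemaciclib and 12.1, 16.6 and 9.72 under palbociclib, and the groups overlapped. Its changes there were -0.32 (95% interval -0.82 to 0.19) and -0.29 (-0.79 to 0.20). EED also shares 221 exon bases with a long non-coding RNA on the opposite strand, so that reads of the pair could be told apart only if strand was counted.

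Abemaciclib and palbociclib were compared directly at 500 nM and 5 days, which gave 18 pairs of values over 9 genes and 2 lines. Of these, 5 differed, all with the lower level under abemaciclib. In CAMA-1 they were HELLS and DNMT1, where 1.53% of all genes tested were lower under abemaciclib than under palbociclib and 0.796% were higher. HELLS differed by -1.01 (s.e. 0.13, adjusted p = 1.26e-06), leaving 49.7% of its level under palbociclib. The DNMT1 difference was -0.37 (s.e. 0.08, adjusted p = 0.00809), and was not called without abemaciclib replicate 1 (-0.30, adjusted p = 0.109) or palbociclib replicate 2 (-0.28, adjusted p = 0.128).

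In ZR-75-1 the inhibitors differed for HELLS, EZH2 and DNMT1, against 7.94% of genes lower and 5.23% higher. HELLS differed there by -1.21 (s.e. 0.13, adjusted p = 2.13e-10), EZH2 by -1.17 (s.e. 0.17, adjusted p = 3.81e-07) and DNMT1 by -0.90 (s.e. 0.10, adjusted p = 7.37e-10), and none of the 3 was lost in any alternative. The other 13 pairs were not called, and how closely they can be said to match varied with depth. For SUZ12 the 95% intervals were narrow, from -0.21 to 0.21 in CAMA-1 and from -0.31 to 0.12 in ZR-75-1, and EZH2 in CAMA-1 gave -0.37 to 0.07. For UHRF1 in ZR-75-1 the interval ran from -2.03 to -0.04 (adjusted p = 0.174), and for DNMT3B there from -1.12 to 1.59. EZH1 was lower under abemaciclib than under palbociclib in CAMA-1, without overlap, by 0.92 on the log2 scale, but this did not pass the adjustment (adjusted p = 0.188).

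**Figure D4:**
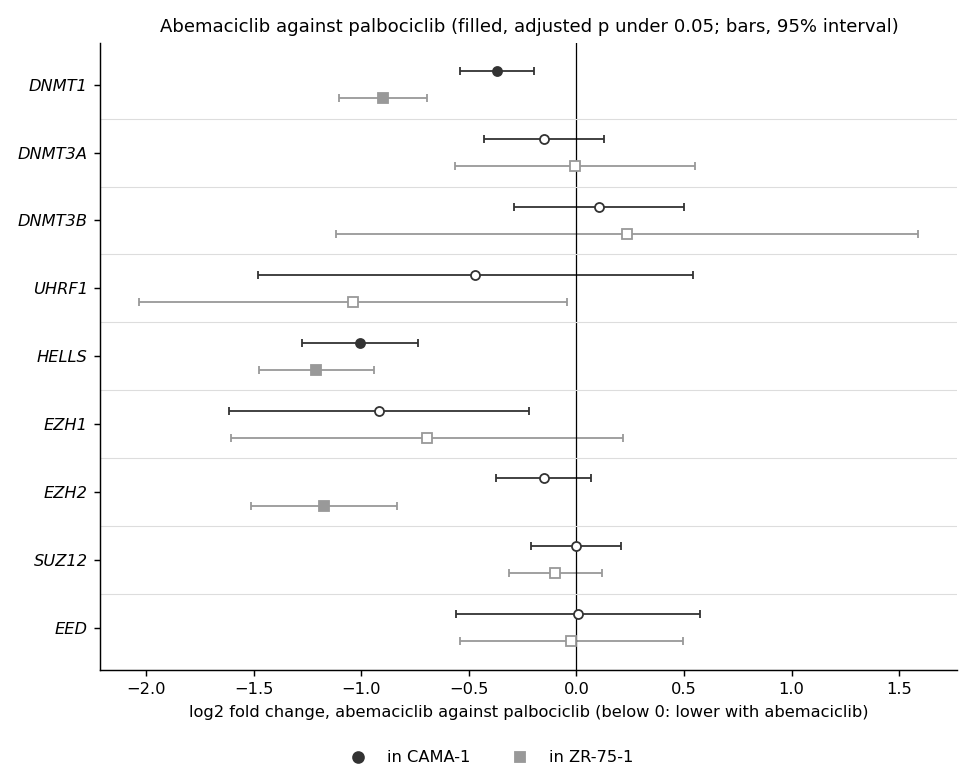
Log2 fold change of abemaciclib against palbociclib (horizontal axis; values below 0 are lower under abemaciclib) for the 9 transcripts in CAMA-1 (dark circles) and ZR-75-1 (grey squares), with 95% intervals. The filled symbols are the 5 pairs that differed, and EZH2 is filled in ZR-75-1 only.

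Differences between the lines were tested as an interaction over all 18 libraries, with the CAMA-1 change subtracted from that of ZR-75-1. For abemaciclib, 2 of the 9 genes differed, in opposite directions, against 18.2% of 11987 genes. EZH2 fell further in ZR-75-1 (-0.78, s.e. 0.19, adjusted p = 0.00140), and HELLS fell further in CAMA-1 (0.66, s.e. 0.19, adjusted p = 0.00787). For palbociclib, 2 differed, against 20.3% of all genes, and both fell further in CAMA-1: HELLS by 0.86 (s.e. 0.16, adjusted p = 3.13e-05) and DNMT1 by 0.61 (s.e. 0.12, adjusted p = 0.000115). UHRF1 gave 1.49 in the same direction (s.e. 0.58, adjusted p = 0.0556) and was on either side of the threshold in the alternatives. The gap between the inhibitors itself differed between the lines for 2 of the 9 genes, against 2.80% of all genes, and was wider in ZR-75-1 for EZH2 (-1.02, s.e. 0.20, adjusted p = 0.000491) and for DNMT1 (-0.53, s.e. 0.13, adjusted p = 0.0127).

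Proliferation markers also changed. All 10 proliferation markers fell with either inhibitor in CAMA-1 and under abemaciclib in ZR-75-1, and 9 of 10 under palbociclib in ZR-75-1, with median log2 fold changes of -2.72, -2.16, -3.56 and -0.89. MKI67, a marker of dividing cells, changed by -3.27 (abemaciclib) and -2.40 (palbociclib) in CAMA-1 and by -5.88 and -1.36 in ZR-75-1. In the same order, calls of the 9 repressors numbered 8, 8, 6 and 5. These counts include the rise of DNMT3A and depend on read depth, so they were not ranked against the medians. Whether the repressor transcripts follow the share of dividing cells was not tested.

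The transcripts most like each member were sought over all 9952 genes tested in both lines, as the Pearson r of log2 CPM centred within each line over 18 libraries that share their treatments. DNMT1 was nearest to DUT (0.986), PKMYT1 (0.986) and PBK (0.985). HELLS was nearest to PKMYT1 (0.986), DNMT1 (0.978) and E2F1 (0.978), and EZH2 to TPX2, STMN1 and KNSTRN (each 0.980). The low-count genes had looser neighbours, with UHRF1 nearest to GLE1 (0.919), EIF3G (0.913) and MDC1 (0.912), and EZH1 to CTPS1 (0.819), ATG10 (0.780) and PALM (0.779). SUZ12 was nearest to SLC2A4RG (0.898), CEP152 (0.891) and CDC20 (0.887), EED to PSMG3 (0.840), EIF4G2 (0.807) and LEMD2 (0.804), and DNMT3B to GABPB1 (0.860), PIGO (0.856) and ERI2 (0.844). Among the nearest to the rising DNMT3A were PLXNA3 (0.891) and ME2 (0.834).

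Around the members, the calls of other machinery went in both directions, with more lower than higher in each list. For abemaciclib and palbociclib in CAMA-1 and then in ZR-75-1, 20.1%, 18.7%, 18.3% and 13.4% of all genes tested were lower. In the same order, 20.3%, 18.4%, 17.9% and 14.5% were higher. Of 15 tested genes among 18 others that place, read or remove DNA methylation, 5 were lower and 3 higher under abemaciclib in CAMA-1, 3 and 1 under palbociclib, 6 and 2 under abemaciclib in ZR-75-1 and 4 and 2 under palbociclib. CDCA7L was lower in all 4, by -2.02 (s.e. 0.30) and -2.05 (s.e. 0.29) in CAMA-1 and by -2.17 (s.e. 0.26) and -1.95 (s.e. 0.25) in ZR-75-1. Its relative CDCA7, the partner that recruits HELLS to chromatin and named after its values were seen, was -3.22 and -1.80 in CAMA-1 and -1.81 under abemaciclib in ZR-75-1 (adjusted p = 0.0150), but -0.27 under palbociclib there (adjusted p = 0.744). The ZR-75-1 call rested on 0 to 26 reads a library, and was lost without DMSO replicate 2 or abemaciclib replicate 2. The demethylating oxygenases TET2 and TET3, also named after their values were seen, were called in ZR-75-1 and not in CAMA-1, TET2 at -0.69 and -0.74 and TET3 at -1.06 and -1.11 under abemaciclib and palbociclib. Both TET3 calls were lost without DMSO replicate 1 (-0.68 and -0.74), and the palbociclib one also without palbociclib replicate 1 (-0.90). The change in TET2 differed between the lines under either drug (interaction adjusted p = 0.00361 and 0.00103), and that in TET3 under abemaciclib (adjusted p = 0.00660) but not palbociclib (adjusted p = 0.0774).

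Of the further PRC2 subunits and the demethylases of its mark, 11 of 12 were tested. In CAMA-1, 4 were lower and 1 higher under abemaciclib, and 3 and 1 under palbociclib. ZR-75-1 had 3 and 2 lower, in the same order, and none higher. The shares over all genes tested were 20.1%, 18.7%, 18.3% and 13.4% lower and 20.3%, 18.4%, 17.9% and 14.5% higher, in the order used above. PHF19, a subunit that guides PRC2 to chromatin, had a lower estimate than any of the 4 core subunits in every comparison, although this difference was not tested. It measured 80.2, 88.4 and 101 CPM under DMSO in CAMA-1, 11.9, 8.15 and 12.2 under abemaciclib and 17.8, 15.6 and 17.0 under palbociclib. In ZR-75-1 PHF19 had 58.6, 49.7 and 53.2 CPM under DMSO, 2.65, 1.74 and 3.95 under abemaciclib and 16.6, 15.3 and 15.3 under palbociclib, again with no overlap. Its log2 fold changes were -3.06 (s.e. 0.16) and -2.45 (s.e. 0.14) in CAMA-1 and -4.29 (s.e. 0.25) and -1.78 (s.e. 0.17) in ZR-75-1. Named after its values were seen, the histone-binding subunit RBBP7 was -0.90 and -0.86 in CAMA-1, with -0.32 and -0.13 in ZR-75-1, the last not called and the one before it lost without abemaciclib replicate 1 (-0.27). KDM6B, which removes the PRC2 mark and was likewise named after its values were seen, was 1.58 and 1.31 in CAMA-1 (both called) and 0.21 and -0.50 in ZR-75-1 (neither called), and the lines differed for either drug (interaction adjusted p = 0.000813 and 1.30e-05).

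PRC1, a complex with subunits that read the PRC2 mark, had 3 to 5 of 19 tested genes lower and 0 to 2 higher per comparison. Over all genes tested, 13.4 to 20.1% were lower and 14.5 to 20.3% higher. CBX2, a reader subunit, was lower in all 4, at -0.77 and -0.90 in CAMA-1, with -0.82 and -0.86 in ZR-75-1. Of 15 genes of histone H3 lysine 9 methylation, another repressive mark, 7, 6, 6 and 2 were lower and 1, 1, 0 and 0 higher, in the order of abemaciclib and palbociclib in CAMA-1 and then in ZR-75-1. CBX5, the reader HP1α, was lower in all 4, from -0.84 under abemaciclib to -0.50 under palbociclib in ZR-75-1. The median over each of these 4 lists lay between -0.34 and 0.12, beside -0.01 to 0.01 over all genes tested, whereas the 5 DNA methylation members had medians of -1.28, -1.04, -1.23 and -0.48 and the 4 PRC2 members -0.84, -0.61, -0.59 and -0.26.

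**Figure D5:**
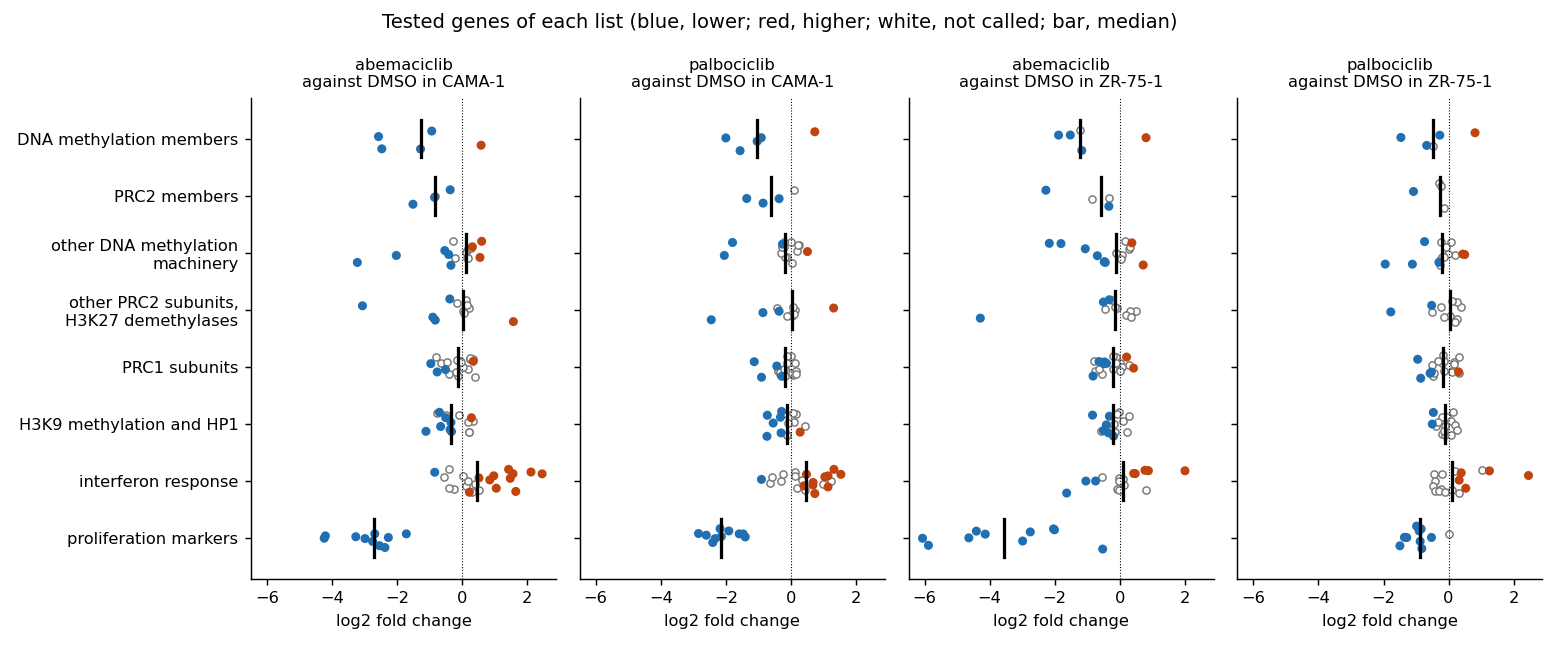
Log2 fold changes against DMSO (horizontal axes) of the tested genes of each list, 1 panel a comparison; blue and red points passed the test, white points did not, and bars are list medians. The medians of the members and of the proliferation markers lie left of 0, with DNMT3A to the right. Those of the other silencing lists run from -0.34 (H3K9 methylation, abemaciclib in CAMA-1) to 0.12, with single genes far to the left. That range includes the PRC2 member median of -0.26 under palbociclib in ZR-75-1.

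Genes that these repressors are known to hold silent mostly had too few reads to test. Of 23 germline genes whose promoters are methylated in somatic cells, none passed the filter in CAMA-1 and 2 in ZR-75-1, with no call. Of those tested in neither line, BRDT reached 30 reads in a library and no other more than 8, so that a change within so few reads was not detectable at this depth. Of 25 developmental genes that carry the Polycomb mark in many cell types, 7 were tested in CAMA-1 and 5 in ZR-75-1. In CAMA-1, 2 were lower and 2 higher with either inhibitor, and in ZR-75-1 1 was lower with either. Across the comparisons with DMSO, 13.4 to 20.1% of all genes tested were lower and 14.5 to 20.3% higher. CDKN2A, the locus of the cell cycle inhibitor p16 and a known Polycomb target, was lower in all 4 comparisons, at -0.65 and -0.56 in CAMA-1, with -2.56 and -1.03 in ZR-75-1. CDKN2B, its neighbour, named after its values were seen, was called higher in CAMA-1 under either drug, by 1.69 on the log2 scale under palbociclib. In ZR-75-1, CDKN2B had 0 to 7 reads in a library, too few to judge a change.

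Interferon-response genes, which have been linked to a loss of DNMT1 under CDK4/6 inhibitors, were followed for the same reason. Of 48 listed, 22 were tested in CAMA-1, with 11 higher and 1 lower under abemaciclib and 10 higher and 1 lower under palbociclib. Of 17 tested in ZR-75-1, abemaciclib gave 5 higher and 3 lower and palbociclib 5 higher and 0 lower. In the same order, 20.3%, 18.4%, 17.9% and 14.5% of all genes tested were higher and 20.1%, 18.7%, 18.3% and 13.4% lower. Of the listed genes tested in neither line, HERC6 reached 17 reads in a library and no other more than 14. IFI6 rose in all 4, by 2.46 and 1.14 in CAMA-1, with 0.88 and 1.26 in ZR-75-1. OAS3, named after its values were seen, was lower with either drug in CAMA-1 (-0.84 and -0.91). The former call was lost without DMSO replicate 1 (-0.62). In ZR-75-1, OAS3 was called lower under abemaciclib only, with means of 28.6 CPM under DMSO and 9.20 under abemaciclib. The RNA sensor IFIH1, named after its values were seen, was higher in CAMA-1 (1.57 and 1.14) and lower under abemaciclib in ZR-75-1 (-1.04, adjusted p = 0.0244), the latter call lost without DMSO replicate 1 or abemaciclib replicate 1. For DNMT1 under abemaciclib the lines differed by 0.09 (95% interval -0.18 to 0.35). The sets of interferon-response genes tested in the lines differ, and their counts of calls were not compared between lines. Whether a change in DNMT1 bears on these genes was not tested.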

How the data were processed

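3′ end libraries (Lexogen QuantSeq; the labels and the methods differ on its strand) of 6 groups of 3 were analysed. The authors trimmed reads with BBDuk, aligned them to hg38 with STAR (2.7.5b) and deposited raw counts per gene from featureCounts (2.0.1, GENCODE annotation). How strand, multiple alignments and molecular identifiers were handled is not given in the sources used here. Values of overlapping or copied genes are therefore less certain. The standard errors reflect the spread between libraries and do not cover this uncertainty.

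The 9 members and all gene lists were chosen with earlier results of these data known, and are no independent evidence of a direction. Symbols came from a table matching 60401 of 60656 identifiers. Counts were fitted per line (9 libraries, 3 groups; edgeR 4.0.16 in R 4.3.3, filterByExpr, TMM, quasi-likelihood F test) and over 18 libraries for interactions, with Benjamini-Hochberg adjustment over all genes tested and a threshold of 0.05. SEs are the fold change over the root of F; intervals are 95%. The code was tested on simulated data. Totals of 2308442 to 4146549 counts set the precision of low-count genes. Named outside the members were genes called in the same direction in all 4 comparisons with DMSO, at most 6 a list, and the 3 nearest transcripts of each member; others are stated as later choices, and 1 gene that the rule names is not reported here. Alternatives were RLE and upper-quartile scaling, 2 other filters, DESeq2 (1.42.0), a minimum of 1.5-fold, other sets of libraries, exclusion of mitochondrial genes, a replicate block and each library left out. Promoters came from RefSeq (GRCh38.p14); overlaps of exons came from a later GENCODE release (GRCh38).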

Additional observations from a re-analysis of the deposited data

Results flagged for a closer look

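The effects below differed between CAMA-1 and ZR-75-1 by an interaction term (the CAMA-1 change subtracted from that of ZR-75-1). With abemaciclib, HELLS differed by 0.66 (95% interval 0.29 to 1.04). In the same fit of both lines together, its log2 changes were -2.54 in CAMA-1 and -1.87 in ZR-75-1. EZH2 differed by -0.78 (-1.16 to -0.41), the only one of the 9 whose fall with abemaciclib was significantly deeper in ZR-75-1. With palbociclib, DNMT1 differed by 0.61 (0.37 to 0.86) and HELLS by 0.86 (0.54 to 1.18), both with the deeper fall in CAMA-1. The gap between the inhibitors differed by -0.53 (-0.80 to -0.26) for DNMT1 and by -1.02 (-1.41 to -0.62) for EZH2, both wider in ZR-75-1. All 9 genes were tested in each of these 3 contrasts. The median of the proliferation markers was -2.16 with palbociclib in CAMA-1 and -0.89 in ZR-75-1, and with abemaciclib -2.72 and -3.56. Its part in these values was not tested.

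Among the genes named after their values were seen, the same contrasts differed for KDM6B by -1.39 (abemaciclib) and -1.84 (palbociclib) and for TET2 by -0.88 and -0.96. They also differed for TET3 by -1.37 (abemaciclib) and for IFIH1 by -2.63 and -1.60. In each of these the change against DMSO in ZR-75-1 lay below that in CAMA-1, which need not be a fall in ZR-75-1.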

How the results depend on the processing

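Of 810 alternative values of the 9 genes, 741 kept their direction and their side of the threshold, 56 were no longer called, 11 became called and 2 reversed. Both reversals were EZH1 with palbociclib, which was never called: leaving out each library in turn gave -0.12 to 0.20 in CAMA-1 and -0.35 to 0.075 in ZR-75-1. When a change of at least 1.5-fold was required, 4 of 9 genes were called with abemaciclib and 5 with palbociclib in CAMA-1, 3 and 1 in ZR-75-1, 0 between the inhibitors in CAMA-1 and 0 in each of the 3 interactions; a minimum change by construction makes fewer calls. DESeq2 called 2 genes with palbociclib in ZR-75-1, against 5. Leaving out each library in turn called 3 to 4 genes in that comparison, 4 to 6 with abemaciclib in ZR-75-1, 1 to 2 between the inhibitors in CAMA-1, 1 to 2 in the abemaciclib interaction and 1 to 2 in the difference of the inhibitors between the lines. The cause of these losses was not tested. The HELLS interaction with abemaciclib was lost without CAMA-1 abemaciclib replicate 1 (0.54), and the DNMT1 difference of the inhibitors without each of 5 of 12 libraries, CAMA-1 abemaciclib 3, CAMA-1 palbociclib 1 and 3, ZR-75-1 abemaciclib 1 and ZR-75-1 palbociclib 2 (-0.48 to -0.45).

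Libraries of the same replicate number did not deviate together (r of -0.078 to 0.012 over 18 pairs), so the numbers were not taken as pairs. With the number as a replicate block, 8, 8, 6 and 4 genes were called against DMSO, in the order used above, and DNMT3B with palbociclib in ZR-75-1 (-1.46, adjusted p = 0.0501) was the call lost. Depth limits UHRF1, EZH1, EED and, in ZR-75-1, DNMT3A and DNMT3B, which have the fewest reads.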
